A study of Mus musculus with 6 samples.

Results

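The CITED genes and the acetyltransferases they bind were examined in day 4 embryoid bodies (EBs, floating aggregates in which mouse embryonic stem cells differentiate). Members were taken by gene symbol from the 23353 genes listed, and all 5 were found: the coactivators Cited1, Cited2 and Cited4, and the acetyltransferase genes Crebbp (encoding CBP) and Ep300 (encoding p300). Of these, 4 passed the filter on low values and were among the 13136 genes tested, and Cited4 did not. Wildtype EBs came from the W9.5 embryonic stem cell line. EVX1-Δfs (mutant) EBs came from clone 14, a CRISPR-Cas9 edited derivative of W9.5 with small frameshift deletions on both alleles within the homeodomain sequence of Evx1, in exon 2. All 6 cultures, 3 per genotype, were grown in serum without LIF for 4 days. Since the edited cells are 1 clone, the effect of the edit and of the cloning cannot be told apart.

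CITED proteins do not bind DNA. They carry a conserved acidic C-terminal region that docks on the CH1 (TAZ1) domain of CBP and p300, and so bring these acetyltransferases to factors such as AP-2 and SMAD proteins. CITED2 also competes with the hypoxia factor HIF1A for that same domain, and is itself induced by low oxygen. Mouse embryos without Cited2 have defects of the heart, the adrenal gland and left-right patterning, and loss of either Crebbp or Ep300 is lethal before birth.

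On NCBIM37, the assembly also called mm9, Cited1 lies on chromosome X from 99442720 to 99447520 (minus strand) and Cited2 on chromosome 10 from 17443034 to 17445479 (plus strand). Cited4 lies on chromosome 4 from 120339168 to 120340425 (plus strand), Crebbp on chromosome 16 from 4084048 to 4213404 (minus strand) and Ep300 on chromosome 15 from 81415781 to 81482507 (plus strand). All are annotated as protein coding. The only exonic overlap with another annotated gene was a microRNA model of 54 bases on the same strand within Ep300.

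The promoters of Cited1 and Cited2 are shown because these genes were the members that differed between genotypes. RefSeq windows (GRCm38.p6, 250 bases before to 50 after a start) were present for all 5 members, with 3 alternative starts for Cited1. Of the Cited1 windows, those with a motif match are given. Capitals mark the HIF core ACGTG and the AP-2 motif GCCNNNGGC, found on either strand.
Cited2, chr10:17722978-17723277, plus strand: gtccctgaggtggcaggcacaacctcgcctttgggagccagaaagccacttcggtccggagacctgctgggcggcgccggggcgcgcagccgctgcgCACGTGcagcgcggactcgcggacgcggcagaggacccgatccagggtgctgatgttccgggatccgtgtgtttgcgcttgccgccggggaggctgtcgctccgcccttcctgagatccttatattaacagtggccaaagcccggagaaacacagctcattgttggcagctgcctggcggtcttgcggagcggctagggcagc
Cited1, window 2, chrX:102251794-102252093, minus strand: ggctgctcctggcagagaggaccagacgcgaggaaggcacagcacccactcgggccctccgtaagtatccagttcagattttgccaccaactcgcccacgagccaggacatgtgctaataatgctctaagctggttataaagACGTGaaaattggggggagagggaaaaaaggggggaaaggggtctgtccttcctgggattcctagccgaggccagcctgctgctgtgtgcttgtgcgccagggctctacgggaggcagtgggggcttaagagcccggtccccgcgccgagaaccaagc
Cited1, window 3, chrX:102250727-102251026, minus strand: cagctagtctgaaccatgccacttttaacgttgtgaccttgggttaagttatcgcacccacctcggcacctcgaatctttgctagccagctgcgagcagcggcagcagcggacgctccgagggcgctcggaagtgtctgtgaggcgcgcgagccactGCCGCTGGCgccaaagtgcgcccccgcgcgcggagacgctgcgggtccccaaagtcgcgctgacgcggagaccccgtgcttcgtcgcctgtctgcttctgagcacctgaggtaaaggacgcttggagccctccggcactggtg

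In the Cited2 window the HIF core occurs once on each strand as 1 palindrome, from base -153 to -148 relative to the start. The second Cited1 window holds 1 HIF core, from -108 to -104, and the third holds 1 AP-2 motif, from -93 to -85. The first Cited1 window and those of Cited4 and Ep300 held neither motif, and the Crebbp window held 2 AP-2 motifs. Across 32851 windows of the same length, 19.6% held the HIF core and 16.6% the AP-2 motif. The CRE motif TGACGTCA (1.79% of windows) and the homeodomain motif TAATTA (5.29%) were in none of the members' windows. A match in a window is a description of the sequence and no evidence of binding.

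Reads assigned to genes numbered 7597879 to 9914471 per library. The targeted transcript did not check the labels, since a frameshift need not change its level: Evx1 stood at 2311 ± 119 normalized counts in the wildtype and 2294 ± 258 in mutant EBs (SD, n = 3). Markers of the primitive streak and nascent mesoderm were present in every library. Their summed level over 7 genes was 14289.6 to 17126.3 normalized counts in the wildtype and 9917.59 to 12483.3 in EVX1-Δfs EBs. The 7 visceral endoderm markers summed to 36.3 to 61.8 normalized counts per wildtype library and 43.9 to 55.3 per mutant library, with Rbp4 and Cubn the highest (at most 25.7 and 24.8) and Afp and Ttr the lowest (at most 1.91). The 6 trophoblast markers summed to 44.7 to 68.1 and 42.9 to 66.7, mostly Krt7 (28.6 to 53.4), while Prl3d1 had no read in any library.

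Cited1 and Cited2 fell in EVX1-Δfs EBs, while no difference was detected for Crebbp, Ep300 or Cited4. Cited1 fell by 44.3% and Cited2 fell by 32.8%, whereas the estimates for Crebbp and Ep300 lay above 0. Of the 4 members tested, 2 were called lower and 0 higher at a limma adjusted p under 0.05, where 2.95% of all genes tested were called lower and 2.08% higher. In that test 0 members reached an unadjusted p under 0.05 in the upward direction. DESeq2, with 2.44% of all genes called higher and 4.45% lower, and edgeR, with 2.35% and 2.87%, also called 0 members higher and 2 lower. Cited1 and Cited2 were among genes the study itself named from these libraries, so their selection is not independent of the direction.

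Cited1 is a small nuclear coactivator of SMAD4 and oestrogen receptor. It had 313, 344 and 302 normalized counts in the wildtype replicates 1 to 3, and 152, 185 and 198 in the same-numbered EVX1-Δfs libraries. Every EVX1-Δfs library was below every wildtype library, an arrangement found in the same direction for 14.7% of all genes tested. The log2 fold change of EVX1-Δfs over wildtype (log2FC) was -0.84 ± 0.15 (SE), with a 95% interval from -1.15 to -0.54 and an adjusted limma p of 0.00174. Between libraries of the same number the log2 difference was -1.03, -0.89 and -0.61.

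Fold changes across all genes tested fell with the GC content of the exons (rho by Spearman -0.46 over 12977 genes, genes not being independent replicates). Cited1 exons are 63.5% G or C, above 99.2% of the genes tested. With per-library trends on GC content and length removed, the Cited1 estimate was -0.63 ± 0.15 (SE), still called by limma at an adjusted p of 0.0316 (1.4% of all genes were then called lower). Adding the replicate block to that correction gave an adjusted p of 0.0555, and the call was lost, where 1.0% of all genes were called lower. The part of GC content in the fall was not tested further.

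Cited2, the member most studied in heart development and the hypoxia response, had 921, 1067 and 907 normalized counts in the wildtype replicates 1 to 3. EVX1-Δfs replicates 1, 2 and 3 had 516, 779 and 672. The groups again did not overlap, and EVX1-Δfs replicate 1 was the lowest library. The log2FC was -0.57 ± 0.14 (SE), with a 95% interval from -0.85 to -0.29 and an adjusted limma p of 0.0176. Same-numbered libraries differed by -0.83, -0.45 and -0.43 on the log2 scale. The call rested on 2 libraries: without EVX1-Δfs replicate 1 the log2FC was -0.41 (adjusted limma p of 0.117), and without wildtype replicate 2 it was -0.50 (0.0535). Cited2 exons are 50.9% G or C, near the median gene tested (50.3%), and removal of the trends left a log2FC of -0.53 ± 0.13 (SE; adjusted limma p of 0.0382).

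Cited4, a coactivator of AP-2 proteins, was close to the detection limit. Its recovered reads numbered 6, 3 and 4 in wildtype and 6, 7 and 3 in the same-numbered EVX1-Δfs libraries, and its normalized counts ranged from 2.65 to 7.89. The groups overlapped throughout. Counting error alone came to 0.70 on the log2 scale per library. Replicates spread by 0.54, but that value was taken after adding a pseudocount of 1, which narrows low counts. These values are therefore not directly comparable. When all genes with any read were tested, its log2FC was 0.24, with a 95% interval from -0.77 to 1.25 (adjusted limma p of 0.819).

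**Figure D1:**
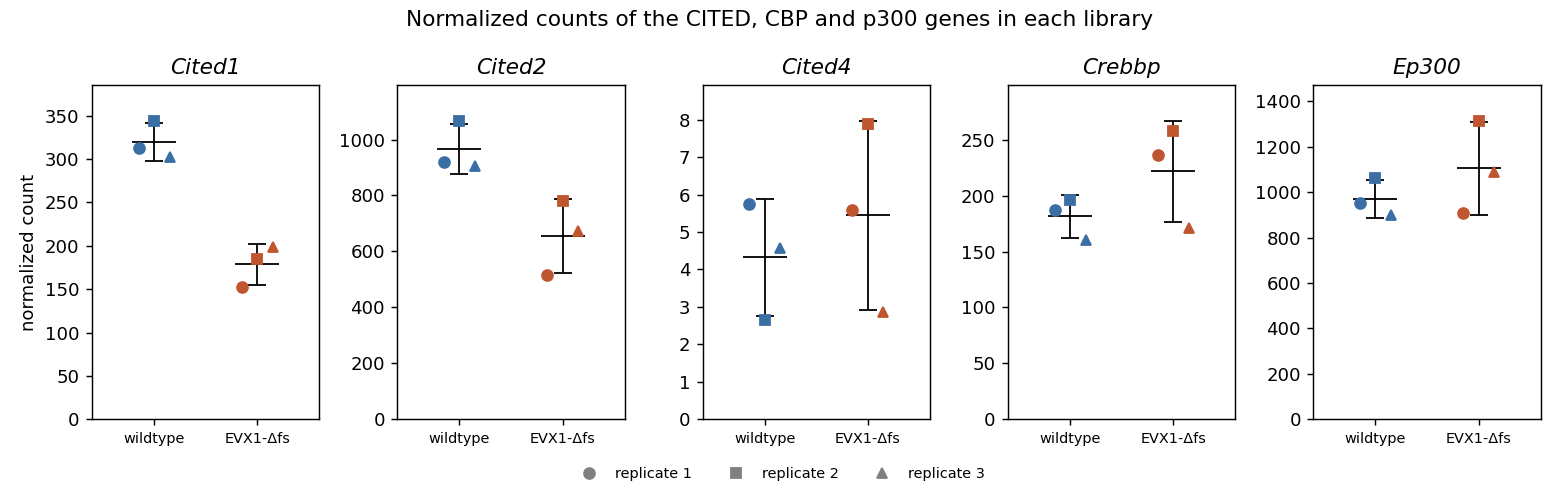
Normalized counts (vertical axes, each starting at 0) of the 5 genes in the 3 wildtype and 3 EVX1-Δfs libraries, with marker shape giving the replicate number and bars the mean ± SD. Cited1 and Cited2 do not overlap between genotypes, and the other genes do.

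CBP, encoded by Crebbp, was first found as the coactivator of phosphorylated CREB, and with its paralogue p300 acetylates histone H3 at enhancers. Crebbp had 188, 196 and 160 normalized counts in the wildtype and 236, 258 and 172 in the same-numbered EVX1-Δfs libraries. EVX1-Δfs replicates 1 and 2 stood above all wildtype libraries, and replicate 3 stood within their range. The log2FC of 0.27 ± 0.16 (SE) had a 95% interval from -0.07 to 0.61 and an adjusted limma p of 0.325. Ep300 had 953, 1061 and 899 normalized counts in the wildtype and 908, 1315 and 1091 in the same-numbered EVX1-Δfs libraries. EVX1-Δfs replicates 2 and 3 stood above all wildtype libraries and replicate 1 lay inside the wildtype range. Its log2FC was 0.17 ± 0.13 (SE), with a 95% interval from -0.09 to 0.44 and an adjusted limma p of 0.436. With GC and length trends removed the Ep300 estimate was 0.11 (adjusted limma p of 0.685). The Crebbp estimate then rose to 0.32, with a 95% interval from 0.002 to 0.637. Its limma p was 0.0484 unadjusted and 0.288 adjusted, so it was not called.

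To place the members on 1 scale, normalized counts were divided by exon length in kb. In wildtype EBs the level per kb was highest for Cited2 at 490 ± 45.1, followed by Cited1 at 182 ± 12.4, Ep300 at 86.4 ± 7.35, Crebbp at 24.2 ± 2.51 and Cited4 at 3.44 ± 1.24 (SD, n = 3). No neighbours in this order overlapped in wildtype. In EVX1-Δfs EBs the order was again led by Cited2 at 333 ± 67.2, but Cited1 at 102 ± 13.5 and Ep300 at 98.3 ± 18.1 (SD, n = 3) were no longer separated. Crebbp stood at 29.6 ± 6.0 and Cited4 at 4.33 ± 2.00. The length used matters for Cited1, whose annotated transcripts together span 1754 exonic bases while the longest has 1090. It also matters for Ep300, with 11234 and 8749. With the longest transcript the level of Cited1 was 293 per kb in wildtype and 164 in EVX1-Δfs EBs, and that of Ep300 was 111 and 126. Cited1 then stood above Ep300 in each mutant library, though their ranges overlapped.

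Cited2 made up most of the CITED sum in both genotypes. Its share of the summed level per kb was 71.9%, 73.2% and 72.4% in wildtype and 74.2%, 78.0% and 74.8% in the same-numbered EVX1-Δfs libraries. The share of Cited1 was 27.0% ± 0.454 in wildtype and 23.4% ± 2.24 in mutant EBs (SD, n = 3). Cited4 contributed at most 1.26% in any library. The ratio of Cited1 to Cited2 per kb was 0.372 ± 0.00966 in wildtype and 0.309 ± 0.0373 in EVX1-Δfs EBs, lower in all 3 EVX1-Δfs libraries. An exact two-sided permutation test gave p = 0.1, the smallest that 3 against 3 libraries allow. The ratio was not corrected for GC content, and with trends removed the log2FCs of Cited1 and Cited2 lay closer together (-0.63 and -0.53). Ep300 supplied 78.2% ± 0.850 of the CBP and p300 sum in wildtype and 76.7% ± 4.51 in EVX1-Δfs EBs. The ratio of Crebbp to Ep300 did not differ beyond its spread (0.279 ± 0.0140 and 0.306 ± 0.0776, exact two-sided permutation p = 0.8).

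The sum of the CITED levels over the sum of the CBP and p300 levels is a within-library ratio that does not depend on how libraries were scaled. It was 5.93, 6.14 and 6.28 in the wildtype replicates 1 to 3, and 3.15, 3.35 and 3.81 in the same-numbered EVX1-Δfs libraries. With the longest transcripts as lengths the ratio was 5.83 ± 0.152 and 3.22 ± 0.299 (SD, n = 3). No test is given for this ratio, since it combines the chosen members. Nor was it corrected for GC content. With GC and length trends removed, the log2FCs of Cited1, Cited2 and Ep300 lay nearer to 0 (-0.63, -0.53 and 0.11), and that of Crebbp lay further from 0 (0.32). The ratio describes transcripts and not the amounts of protein.

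**Figure D2:**
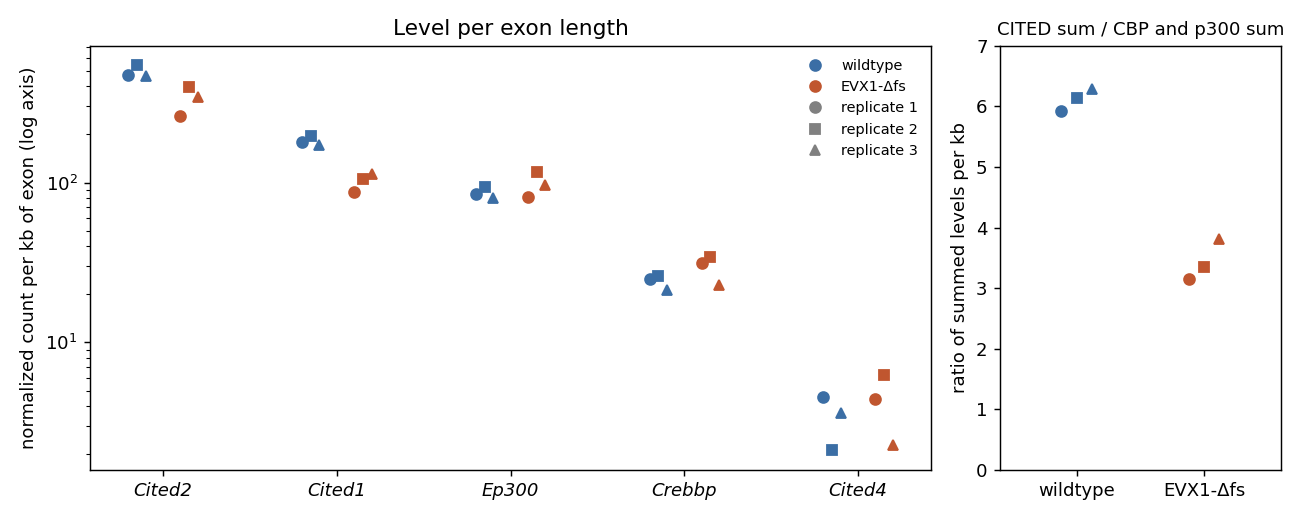
Left, normalized count per kb of exon (log axis) of each gene in each library, coloured by genotype, and right, the summed CITED level over the summed CBP and p300 level per library (axis from 0). With all exons as lengths, Cited1 in EVX1-Δfs EBs comes down to the level of Ep300, and the ratio lies between 3.15 and 3.81 against 5.93 to 6.28 in wildtype.

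The directions of the 4 tested members held in each of the 20 alternative settings, which changed the pseudocount, filter, scaling, tool or block, removed GC and length trends, or left out 1 library. Cited1 was called in 19 of them, with log2FCs from -0.92 to -0.63, and Cited2 in 18, from -0.71 to -0.41. Crebbp (0.15 to 0.45) and Ep300 (0.04 to 0.31) were called in 0 of 20. With the replicate block in limma, Cited1 and Cited2 were called at adjusted p of 0.0148 and 0.0355, where 1.11% of all genes tested were called lower.

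**Figure D3:**
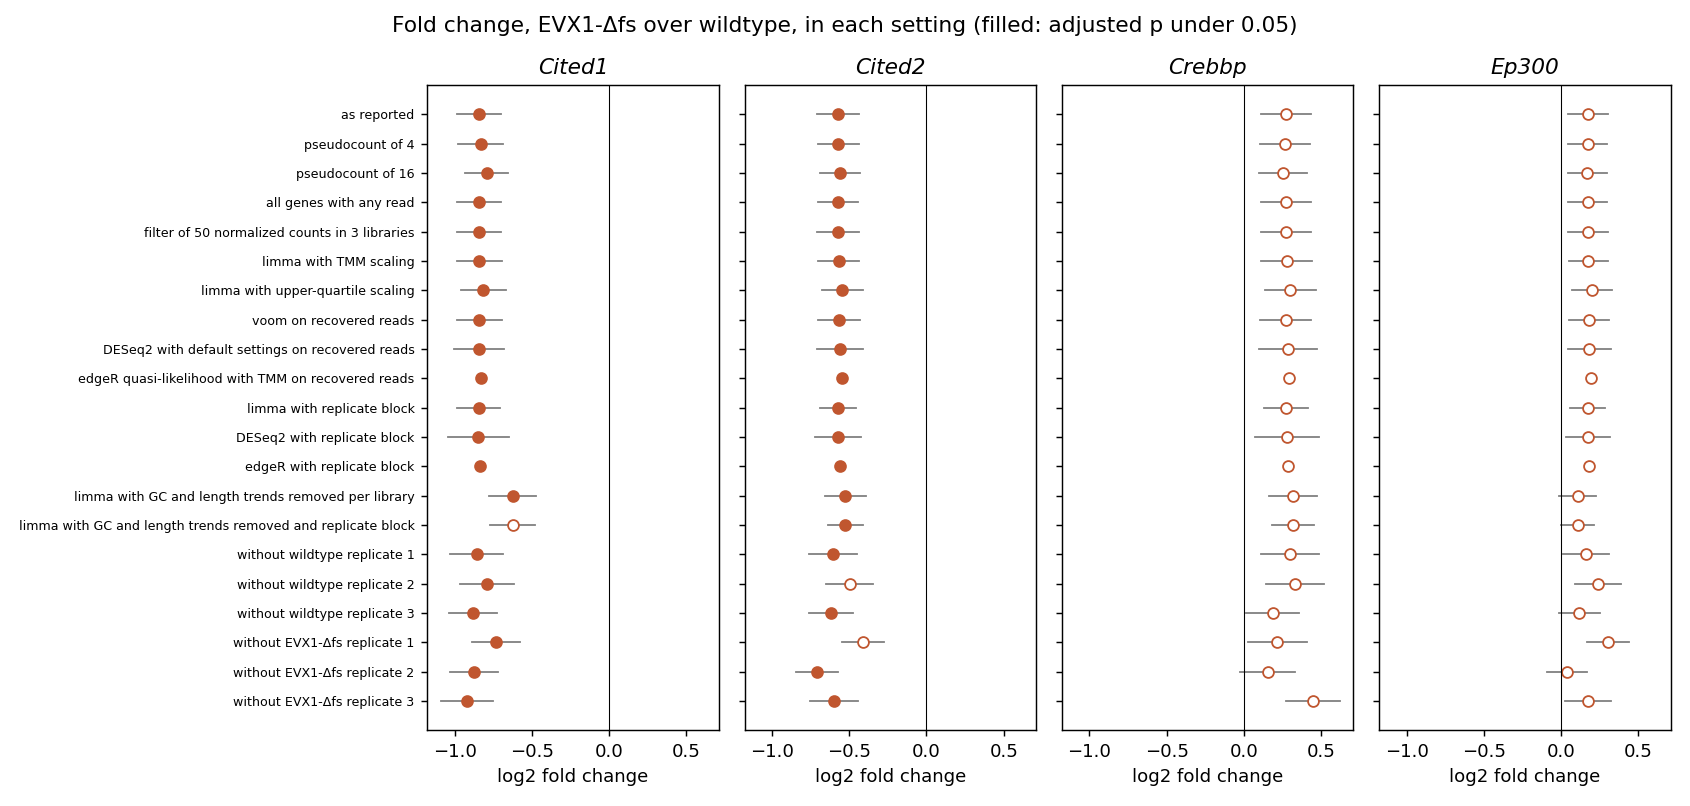
Log2 fold change of EVX1-Δfs over wildtype (horizontal axis) for the 4 tested members in each setting (rows), where bars give ± SE (not computed for edgeR) and filled points have an adjusted p under 0.05. Every Cited1 and Cited2 point lies below 0, and every Crebbp and Ep300 point lies above 0 and is open.

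Markers of several cell populations differed between the same libraries. In limma, 2.95% of all genes tested were called lower and 2.08% higher. Of 7 primitive streak and nascent mesoderm markers 5 were called lower, with a median log2FC of -0.55. Fgf8 (-0.39) and Evx1 (-0.02) were not called. Of 8 haematoendothelial markers 3 were called lower (Kdr, Etv2 and Lmo2). The 8 summed to 3099.61 to 4133.44 normalized counts in the wildtype and 1836 to 2084 in EVX1-Δfs EBs. Kdr was the largest part of the sum, at means of 1987 and 1048. Tal1, Runx1 and Cdh5 lay below 0 without a call, and Gata1 (log2FC of 0.67) and Pecam1 (0.16) lay above 0 without a call. Among 5 markers of definitive endoderm and anterior mesendoderm 3 were called higher (Cer1, Foxa2 and Sox17), with sums of 415 to 602 and 632 to 969. Most of the gain in the sum was Cer1, at a mean of 33.9 in wildtype and 377 in mutant EBs, while Gsc (286 and 240.0) and Hhex (68.9 and 46.1) were not called. Of 7 epiblast and pluripotency markers 1 was called higher (Fgf5), with a median log2FC of 0.40. The median log2FC was -0.19 over the 4 cardiac markers tested, with 0 called. Isl1 (-0.80, adjusted limma p of 0.0532) and Gata4 (-0.38) lay below 0, Myh6 was at 0.00065 and Myl7 (0.52) lay above 0. The cardiac sums were 564 to 681 and 459 to 576, with Gata4 the largest part at means of 368 and 283. The neurectoderm sums, mostly Nes, overlapped (2035 to 2674 and 2276 to 2486), and hide the other genes of that list. Of the 2 neurectoderm markers tested, Nes had a log2FC of 0.00083. Pax6, at low means of 7.75 in wildtype and 19.8 in mutant EBs, had one of 1.31 (adjusted limma p of 0.0803). In bulk EBs, fewer cells that express a gene and less RNA of it per cell cannot be told apart. The part of these populations in the fall of Cited1 and Cited2 was not tested.

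Genes with profiles most like each member were ranked by Pearson's r over the 6 libraries among genes with a mean of at least 50 normalized counts, as a description in which the genotype difference is part of the profile. Fam212a (r of 0.994), Mcfd2 (0.993) and Ncoa5 (0.992) were nearest to Cited1. Sema4c (0.995), Ksr1 (0.994) and Nog (0.991), which encodes the BMP antagonist noggin, were nearest to Cited2. Gas5 (0.994), Purb (0.970) and Cdc14b (0.967) were nearest to Crebbp, and Zbtb21 (0.989), Stxbp4 (0.987) and Isca2 (0.986) to Ep300. Cited1 and Cited2 had an r of 0.933 with each other, where Cited2 ranked 159 among the genes most like Cited1. Crebbp and Ep300 had an r of 0.506.

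Partner genes of the CITED and CBP/p300 proteins were then counted in 8 lists. Of 61 genes 58 were tested, and limma called 0 higher and 2 lower. At an unadjusted limma p under 0.05, 5 were higher and 9 lower. DESeq2 called 1 higher and 3 lower, and edgeR 0 and 2. The share called lower, 3.45%, was near the 2.95% of all genes tested. Their median log2FC was 0.03, against 0.00 over all genes tested. Of the 24 partner genes named here, removal of GC and length trends brought 21 nearer to 0, and 13 moved by over 1.5 times or changed sign. These 24 were picked by their adjusted p before that removal, and the same count was not made over all genes. It therefore does not set the partner genes apart from other genes.

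SMAD proteins carry BMP and nodal signals, and several recruit CBP or p300. Of 8 SMAD genes 1 was called lower. Smad6, an inhibitory SMAD that is itself switched on by BMP signals, had 1075, 1272 and 892 normalized counts in the wildtype replicates 1 to 3. EVX1-Δfs replicates 1, 2 and 3 had 633, 657 and 563, all below the wildtype libraries, as for 14.7% of all genes tested. The log2FC was -0.79 ± 0.13 (SE; adjusted limma p of 0.00109), and Smad6 was called in every alternative setting. Its exons are 60.9% G or C, above 97.0% of the genes tested. With GC and length trends removed its log2FC was -0.61 (adjusted limma p of 0.00967). Smad9 was low, at 19.5 ± 1.96 and 11.4 ± 3.29 normalized counts (SD, n = 3; adjusted limma p of 0.226). Smad2, a transducer of nodal and activin, had a log2FC of 0.29 (adjusted limma p of 0.240).

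AP-2 factors, which CITED proteins coactivate, gave no call in limma, DESeq2 or edgeR. Of 5 genes 3 were tested, and 0 had an unadjusted limma p under 0.05. Tfap2c had 231 ± 16.3 and 225 ± 38.3 normalized counts and Tfap2a 109 ± 9.67 and 106 ± 20.2 in wildtype and mutant EBs (SD, n = 3), with adjusted limma p of 0.871 and 0.915. Tfap2e was low, at 24.4 ± 12.9 and 14.7 ± 6.0.

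Of 10 HIF factors and oxygen sensors, limma called 0, and 2 were higher and 2 lower at an unadjusted p under 0.05. Hif1a, the hypoxia factor that competes with CITED2, had 461 ± 39.7 normalized counts in the wildtype and 605 ± 68.8 in mutant EBs (SD, n = 3). Its groups did not overlap, and its log2FC of 0.39 ± 0.13 (SE) had an adjusted limma p of 0.0685, where 12.2% of all genes tested had every mutant library higher. Its exons are poor in G and C (above 4.52% of the genes tested), and with GC and length trends removed its log2FC was 0.11 (adjusted limma p of 0.730). For the prolyl hydroxylases that mark HIF1A for degradation, Egln2 had a log2FC of -0.40 (adjusted limma p of 0.0536, and 0.0289 in DESeq2, where it was called) and Egln1 of -0.33 (0.106). With those trends removed Egln2 was at -0.22 (0.319) and Egln1 at -0.21 (0.351). edgeR called 0 of this list. Of 9 HIF target genes tested, limma, DESeq2 and edgeR each called 0, and 1 was higher and 1 lower at an unadjusted limma p under 0.05. Of these 9, 7 had a log2FC above 0 and 2 below, with a median of 0.29 against 0.00 over all genes tested. The 2 below 0 were Ddit4, with a log2FC of -0.37 (adjusted limma p of 0.120), and Slc2a1, with -0.25 (0.234). Pdk1 had a log2FC of 0.29 (0.144). Ddit4 was called lower without wildtype replicate 2 (-0.50, adjusted limma p of 0.0484) or without EVX1-Δfs replicate 2 (-0.53, 0.0453), and stood at -0.22 (0.391) with trends removed.

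CREB factors and their CRTC coactivators gave no call in any of the 3 tools, with 2 of 6 lower at an unadjusted limma p under 0.05. These were Crtc1 (log2FC of -0.30, adjusted limma p of 0.185) and Crtc3 (-0.34, 0.187). Crem had 35.9 ± 2.46 and 49.9 ± 14.7 normalized counts (SD, n = 3; adjusted limma p of 0.340). The p160 coactivators, which bind CBP and p300 at nuclear receptors, also gave no call in the 3 tools and 0 genes at an unadjusted limma p under 0.05. Ncoa1, Ncoa2 and Ncoa3 had log2FCs of 0.27, 0.10 and 0.10, with adjusted limma p of 0.368, 0.716 and 0.665.

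Of 8 other lysine acetyltransferases, 0 were called in limma, DESeq2 or edgeR, with 1 higher and 1 lower at an unadjusted limma p under 0.05. Kat2a, the GCN5 enzyme, had a log2FC of -0.30 (adjusted limma p of 0.131), Hat1 of 0.26 (0.177) and Kat2b, the PCAF enzyme, of 0.29 (0.312). Of 11 histone deacetylases, which remove the marks CBP and p300 write, limma called 1 lower. Hdac5, a class IIa enzyme, had 2824, 2678 and 2831 normalized counts in the wildtype and 1953, 2319 and 2020 in the same-numbered EVX1-Δfs libraries. The groups did not overlap, as for 14.7% of all genes tested in that direction. Its log2FC was -0.41 ± 0.11 (SE; adjusted limma p of 0.0338). The call was lost in 8 of 20 settings, among them the limma replicate block (adjusted p of 0.0739), removal of GC and length trends (0.114), and the omission of any of 4 libraries (wildtype 1 at 0.0942, wildtype 2 at 0.0510, EVX1-Δfs 1 at 0.142 and EVX1-Δfs 3 at 0.130). Hdac6, which acts largely on tubulin, had a log2FC of 0.35 at an adjusted limma p of 0.0685, and DESeq2 called it higher (0.0360). Hdac11 had a log2FC of -0.28 (adjusted limma p of 0.210).

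**Figure D4:**
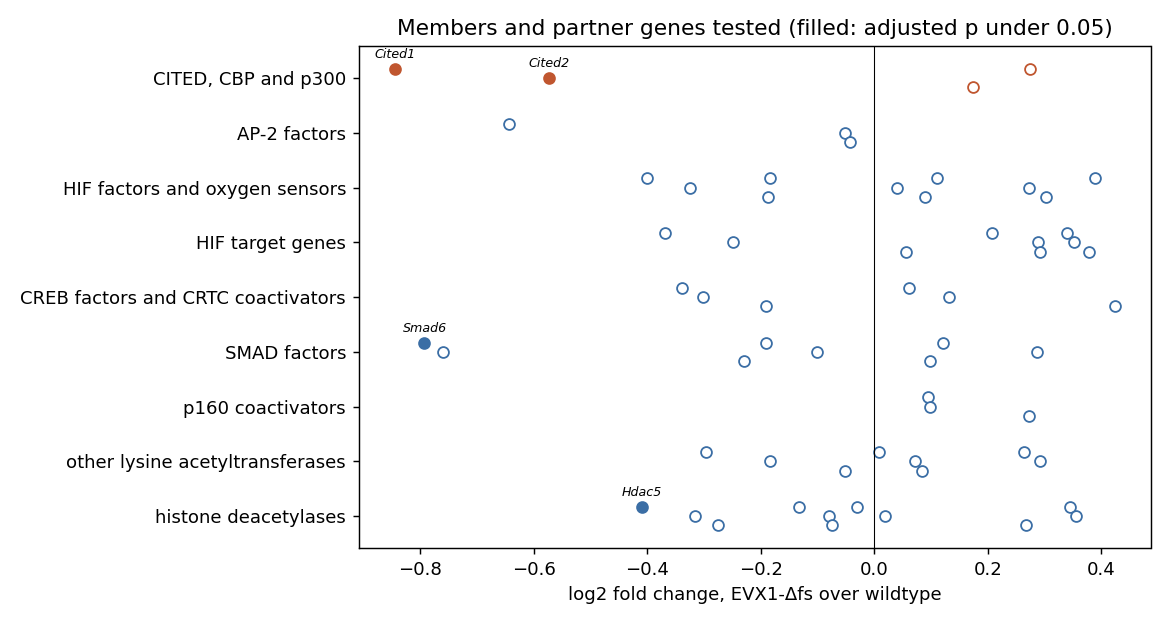
Log2 fold change of EVX1-Δfs over wildtype (horizontal axis) for the 4 tested members and the 58 tested partner genes by list (rows), with filled points at a limma adjusted p under 0.05. Cited1, Cited2, Smad6 and Hdac5 are the filled points, all below 0.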

How the data were processed

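RNA-seq libraries of day 4 EBs (3 wildtype, 3 EVX1-Δfs) were grouped by their labels. The authors selected mRNA, sequenced on an Ion Proton, mapped reads to mm9 with TopHat2 and then TMAP, assigned them to genes with HTSeq (standard settings), and used DESeq2. Versions and the gene annotation are not given in the sources used here. The deposited table is a signal: read counts divided by 1 factor per library, which differed from DESeq2 size factors by at most 0.00577%. All values (100%) came out as whole reads within 0.01 of a read.

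The main test was limma 3.58.1 (trended empirical Bayes) on log2(normalized count + 1), over genes with at least 10 normalized counts in at least 3 libraries. Fold changes are on this log2 scale, which understates low genes. Adjusted p-values (Benjamini-Hochberg) under 0.05 were called. On recovered reads, DESeq2 1.42.0 called 284 genes higher and 517 lower and edgeR 4.0.16 (quasi-likelihood) 309 and 378, against 273 and 387 in limma. R was 4.3.3. Exon lengths and GC content came from GENCODE vM1 on NCBIM37 (22013 symbols, 94.3%, matched). Trends were natural splines with 5 degrees of freedom per library.

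Per the design text, both genotypes were set up together for each replicate, on a different day each time. No source ties the replicate number to a day, and the number was used as a block only in alternatives. Their deviations from group means correlated at 0.111, 0.00933 and -0.101 across 13136 genes. The fits were tested on simulated data. Members and lists were chosen with earlier results of these data known. Named partner genes were the 3 with the smallest adjusted p per list. Intervals of reads cover counting error only. The strand setting of the counting was not stated apart from the standard settings.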

Additional observations from a re-analysis of the deposited data

How the results depend on the processing

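Crebbp and Ep300 kept direction and side of the threshold in all 20 settings. Cited1 lost its call with trends removed and the replicate block (-0.626, adjusted p of 0.0555), where 1 member was called lower. Cited2 ranged from -0.708 to -0.411 and Cited1 from -0.924 to -0.735 when each of the 6 libraries was left out in turn, and then 1 to 2 members were called lower. Cited4 had no value with the filter. The replicate block alone changed no call of a member.

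Over all genes, the counts called higher and lower were 76 and 146 in limma, 77 and 207 in DESeq2 and 66 and 127 in edgeR with the replicate block, 101 and 182 with trends removed, and 67 and 130 with both. Leaving out 1 library gave 80 to 340 higher, lowest when EVX1-Δfs replicate 3 was omitted, and 140 to 362 lower, lowest when EVX1-Δfs replicate 1 was omitted. Upper-quartile scaling gave 370 higher and 325 lower. Causes were not tested. Of the partner genes, 1 was called higher in DESeq2 with default settings (Hdac6), and 1 lower in limma and edgeR with the replicate block and in limma with trends removed, with or without the block. Leaving out 1 library gave 1 to 3 lower. Per kb of the longest transcript, Cited1 was 293 and 164 and Ep300 111 and 126 in wildtype and EVX1-Δfs EBs.

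Of 489 values for 25 other named genes, 458 kept their direction and side of the threshold, 8 were weaker (all Hdac5), 6 stronger (Egln2, Ddit4 and Hdac6) and 17 reversed. The reversed log2 fold changes were Evx1 at 0.0126 (upper-quartile scaling), 0.000334 (edgeR) and 0.176 (trends removed, with or without the block), Tfap2c at 0.0246 and Tfap2a at 0.00107 (both with trends removed, with or without the block), and Ncoa2 at -0.0341 (same settings). Leaving out 1 library gave -0.0858 to 0.0755 for Evx1, -0.162 to 0.0860 for Tfap2c, -0.193 to 0.0421 for Tfap2a and -0.00717 to 0.149 for Ncoa3.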
